A study of Mus musculus with 12 samples.

Results

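The Snord family holds the C/D box small nucleolar RNAs of the mouse. Its members were taken as every entry of the deposited tables whose symbol starts with Snord, which gave 74 symbols from 104 table rows, among 3942 symbols and 4529 rows of non-coding RNA in all. A symbol's rows with identical counts in all 12 libraries were counted once. Of the 74 members, 66 had a count in at least 1 library and 52 had enough counts to be tested, and those 52 held 99.0% to 99.5% of the Snord counts of a library.

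C/D box snoRNAs are mostly cut from introns of host genes, and their boxes C and D bind fibrillarin and its partner proteins of the nucleolus. The stretch upstream of box D, or of an internal copy of it, pairs with a target RNA and places a 2′-O-methyl group on it, most often on ribosomal RNA and for some members on the U6 spliceosomal RNA. A few members help to cut the ribosomal RNA precursor, and imprinted clusters that brain tissue is known for hold members with no ribosomal target.

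The 12 small RNA libraries came from total RNA of stem-like medulloblastoma cells of mouse cerebellum, genotype Math1-Cre; SmoM2, in which Cre under the Math1 promoter, active in granule neuron precursors, switches on an activated Smoothened and with it Hedgehog signalling. The 4 controls carried the CRISPR guide sgGal4-4 against a yeast gene. The 4 libraries labelled Miat knockdown carried sgMiat-6 (libraries 6-1 and 6-2) or sgMiat-96 (96-1 and 96-2) against the long non-coding RNA Miat. The 4 labelled Mtdh knockdown carried sgMtdh-1 (1-1 and 1-2) or sgMtdh-2 (2-1 and 2-2) against Mtdh, which encodes metadherin. All 12 share the tumour genotype, and nothing in the labels tells whether the libraries of 1 guide were grown or taken separately. The p-values below therefore set differences against library-to-library spread, and that spread may be only technical. Both comparisons with the control use the same 4 control libraries.

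The count of Miat itself went against a label. It was 0, 1, 1 and 1 in the controls, 49 and 30 in the libraries labelled sgMiat-6, and 1 and 0 in those labelled sgMiat-96. Small RNA fragments do not measure a long transcript's level, so every direction below is that of libraries named by their labels. In Mtdh libraries it was 0 to 2. The Mtdh transcript is not analysed here.

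Sequences of 9 of the members named in the findings are shown so that the differences can be tied to the molecules. Among members that passed the test between the Miat guides, Snord67, Snord37 and Snord7 differed most. Snord49a, Snord57 and Snord91a passed a test between groups, and Snord19, Snord15a and Snord43 stood out in level. They are GENCODE M21 transcripts on GRCm38, 5′ to 3′ in DNA letters. Capitals mark a box C (NTGATGA within the first 25 bases) and a box D (CTGA within the last 20 bases), searched on the RNA's own strand.
Snord67 (chr2:91596070-91596180, plus strand): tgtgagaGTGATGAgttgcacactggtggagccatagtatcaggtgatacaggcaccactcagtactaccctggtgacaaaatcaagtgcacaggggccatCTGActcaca
Snord37 (chr10:81178950-81179013, plus strand): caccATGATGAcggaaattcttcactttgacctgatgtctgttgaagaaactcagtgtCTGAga
Snord7 (chr11:83294304-83294400, plus strand): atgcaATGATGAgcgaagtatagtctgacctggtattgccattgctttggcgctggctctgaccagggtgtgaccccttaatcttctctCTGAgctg
Snord49a (chr11:62603450-62603521, plus strand): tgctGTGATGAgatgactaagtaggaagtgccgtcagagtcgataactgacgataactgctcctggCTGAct
Snord57 (chr2:130278016-130278087, plus strand): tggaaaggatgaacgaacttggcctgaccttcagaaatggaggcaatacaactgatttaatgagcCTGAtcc
Snord91a (chr11:74905424-74905516, plus strand): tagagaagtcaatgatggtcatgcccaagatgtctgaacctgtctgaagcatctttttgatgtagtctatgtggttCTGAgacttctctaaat
Snord19 (chr14:31016206-31016281, minus strand): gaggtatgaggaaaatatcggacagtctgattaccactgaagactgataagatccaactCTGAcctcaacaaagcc
Snord15a (chr7:99482785-99482932, minus strand): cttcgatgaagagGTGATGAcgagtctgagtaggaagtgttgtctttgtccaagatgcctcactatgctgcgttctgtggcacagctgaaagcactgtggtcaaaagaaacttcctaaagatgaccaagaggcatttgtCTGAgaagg
Snord43 (chr15:80082847-80082954, minus strand): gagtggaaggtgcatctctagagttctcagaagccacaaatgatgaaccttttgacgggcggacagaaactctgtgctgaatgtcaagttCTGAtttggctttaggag

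Snord19, Snord57, Snord91a and Snord43 show a box D but no match to the box C letters in that window. Of the 73 members with a sequence, 45 held the box C letters, 71 the box D letters and 44 (60.3%) both. None of 42 Snora transcripts, the H/ACA box class of 36 symbols in the tables, held both. A match is a description of letters and not of a working box. Most table rows are shorter than these transcripts, as in 57 of the 66 members with a count, and row lengths ran from 28 to 221 bases with a median of 67. The Snord43 row covers 48 bases against 108 in GENCODE, and the Snord15a row 148 against 148.

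By RefSeq positions on GRCm38.p6 and GENCODE M21 genes, 72 of the 74 members lie within a host gene. Of these, 21 lie in genes of ribosomal proteins, and 16 hosts carry 2 or more members. Hosts were taken on the member's own strand, except for Snord116, whose strand was not known here. Snord67 lies in Ckap5, a microtubule-binding protein gene. Snord37 lies in Eef2, the gene of elongation factor 2. Snord57 lies in Nop56, which encodes a core protein of the C/D particle itself, and Snord91a in Tsr1, a ribosome maturation gene. Snord49a shares the non-coding host 2410006H16Rik with Snord49b and Snord65. Snord19 shares Gnl3 with Snord69, Snord15a shares Rps3 with Snord15b, and Snord43 shares Rpl3 with Snord83b. Members of 1 host come from the same primary transcript and are not independent observations.

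Some reads were counted under more than 1 row. The counts of Rabggtb matched those of Snord45c to 0.857% of the Snord45c counts, the counts of 1810032O08Rik matched Snord1a to 1.20%, and the counts of AI450353 equalled those of Snord7 in every library. These 3 rows held 1.42% to 4.88% of the counts outside Rn45s. Gas5 and Snord47, which lies within Gas5, did not show this. In library Miat 6-2 Gas5 had 1384 counts and Snord47 had 1534, so the Gas5 row does not hold all Snord47 reads.

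Libraries held 22785 to 161038 counts after repeated rows were counted once. Rn45s, the ribosomal RNA precursor, took 53.8% to 56.2% of them in controls, 71.2% to 83.9% in Miat libraries and 66.0% to 78.1% in Mtdh libraries. Counts outside Rn45s were 14801 to 28202, 13400 to 43443 and 7208 to 36738. Libraries of a guide differed by more than sampling noise in every pair. Markers of neural cells, 8 of 10 listed microRNAs and snoRNAs in the tables and 6 with counts, summed to 0.942% to 1.24% of counts outside Rn45s in controls, 0.515% to 0.633% in Miat libraries and 0.388% to 0.615% in Mtdh libraries. The 13 markers of other cell types found in the tables (blood, endothelium, liver, muscle, fibroblasts and oligodendrocytes) reached at most 5 counts together in a library. In such bulk RNA, fewer cells of a type and less RNA per cell cannot be told apart.

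The family as a whole took a very even share of the control libraries and a spread of shares with both targets. Outside Rn45s, Snord counts were 29.8%, 29.8%, 29.7% and 30.2% in controls. They were 40.7% and 39.1% in the libraries labelled sgMiat-6, and 28.2% and 32.7% in those labelled sgMiat-96. They were 24.8% and 30.2% in sgMtdh-1 libraries, and 23.3% and 21.9% in sgMtdh-2 libraries. Both sgMiat-6 libraries lay above every other library, both sgMtdh-2 libraries lay below every other library, and sgMiat-96 and sgMtdh-1 each had 1 library below and 1 above the control range. Wilson 95% intervals cover counting error only, and the widest, in Mtdh 1-1, ran from 23.8% to 25.8%.

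Group means of the share were 29.9% ± 0.197 in controls, 35.2% ± 5.79 in Miat libraries and 25.1% ± 3.65 in Mtdh libraries (SD, n = 4 each). The Miat difference from control, 5.30 percentage points, was smaller than the spread among Miat libraries. The denominator decided the direction of the Miat difference, because Rn45s took more of those libraries. Of all counts, the Snord share was 13.4% ± 0.288 in controls, 8.83% ± 2.72 in Miat libraries and 6.93% ± 1.24 in Mtdh libraries (SD, n = 4 each). No library of either target reached the lowest control share of 13.1% on that scale. No p is given for a sum over the members.

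**Figure D1:**
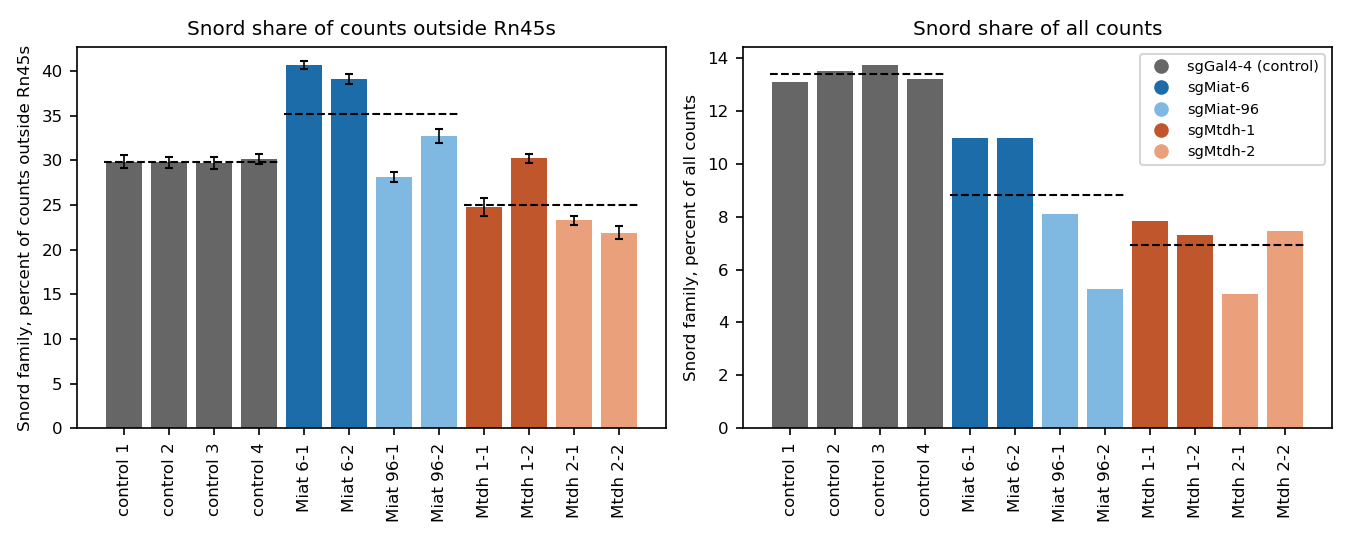
Snord counts as a percent of counts outside Rn45s (left, with Wilson 95% intervals) and of all counts (right) in each of the 12 libraries, coloured by guide, with dashed lines at the group means. The sgMiat-6 libraries stand at 40.7% and 39.1% on the left, above the controls at 29.7% to 30.2%, while on the right every Miat and Mtdh library is below the controls.

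Other RNA classes outside Rn45s moved differently beside the Snord share. The Snora family, which guides pseudouridylation, held 1.14% to 1.29% in controls, 1.60% to 4.69% in Miat libraries and 0.434% to 1.59% in Mtdh libraries. The Scarna family of Cajal bodies held 3.71% to 4.31% in controls, 0.976% to 2.32% in Miat libraries and 2.66% to 3.54% in Mtdh libraries. Rmrp, the RNA of RNase MRP, held 29.7% to 31.0%, 17.8% to 25.7% and 22.3% to 27.1%. The part of these shifts in the Snord share was not tested, apart from leaving Rmrp out of the denominator, which gave a Miat difference of 2.56 and an Mtdh difference of -9.83 percentage points.

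A handful of members made up most of the family. The 5 highest members of each group held 57.2% of Snord counts in controls, 51.2% in Miat libraries and 50.5% in Mtdh libraries. In controls the order by share of Snord counts was Snord15a at 15.8% ± 1.09, Snord19 at 13.2% ± 0.315, Snord47 at 11.6% ± 1.54, Snord49a at 10.1% ± 1.84 and Snord45c at 6.46% ± 0.744 (SD, n = 4). Snord15a, Snord49a and Snord47 guide methylation of 28S ribosomal RNA, and Snord19 and Snord45c of 18S ribosomal RNA. In Miat libraries Snord49a ranked first at 16.0% ± 3.21 and Snord15a ranked 4 at 8.89% ± 1.73. In Mtdh libraries the order began as in controls, with Snord15a at 16.2% ± 3.91 and Snord19 at 13.2% ± 0.401, but Snord43 ranked 4 at 6.30% ± 5.74 (SD, n = 4).

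Levels of members were also set against each other per length of table row. Whether reads of these libraries scale with row length was not tested, and by share of Snord counts Snord15a, not Snord19, came first in controls. By counts per kilobase of table row per 1000000 counts outside Rn45s, Snord19 was highest in controls at 730525 ± 22100, followed by Snord47 at 532321 ± 71145 and Snord49a at 486920 ± 91038 (SD, n = 4). Snord47 and Snord49a did not differ beyond their spread, and neither did Snord15a at 319760 ± 23653 and Snord45c at 315994 ± 34844. The rows of shortened members make these per-length levels higher than the full transcript lengths would. Over the 12 libraries, the members whose log2 level went most like that of Snord19 were Snord15a (Pearson r = 0.843) and Snord91a (r = 0.808), ahead of Snord72 (r = 0.522). These points share library scaling and are a description.

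**Figure D2:**
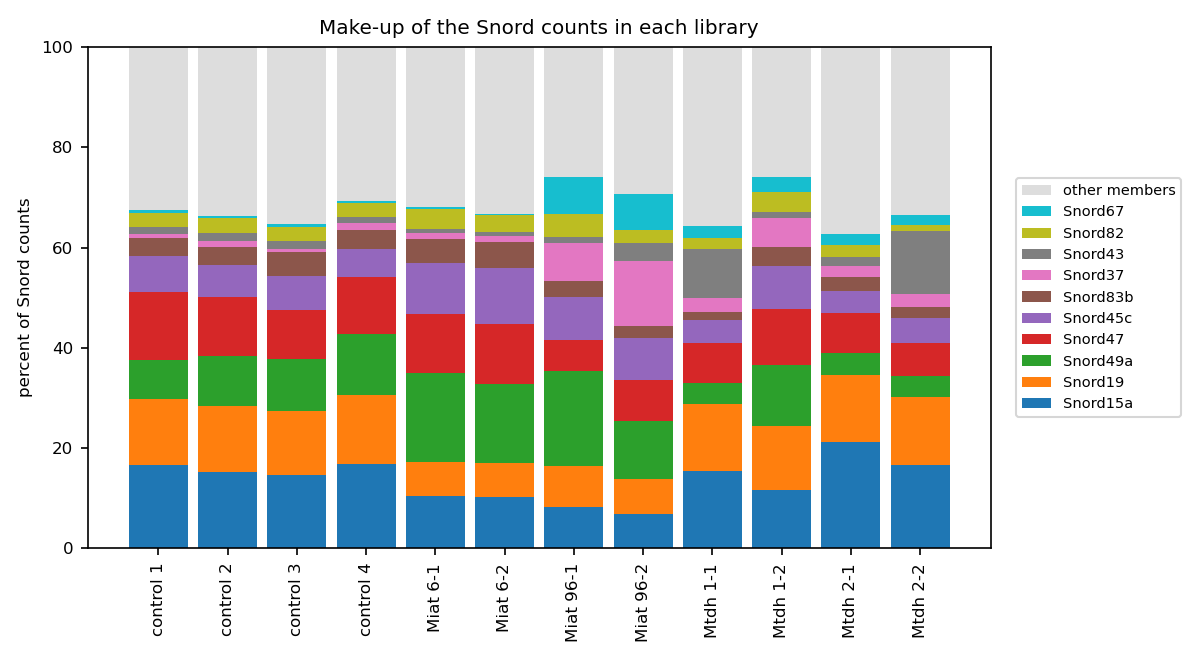
Percent of Snord counts taken by 10 members and by the other members (light grey) in each library. Snord37 and Snord67 widen in the sgMiat-96 libraries, to 7.63% and 12.9% for Snord37 and 7.29% and 7.05% for Snord67, and Snord43 widens to 9.73% and 12.6% in Mtdh 1-1 and Mtdh 2-2.

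For Miat guides against control, 4 of 52 tested members passed edgeR's quasi-likelihood test at an adjusted p of 0.05, against 14% of all 143 rows tested. Snord67, Snord37 and Snord57 were higher and Snord91a was lower. The share of members called, 7.69%, was below that background. The median log2 fold change was 0.23 over the members and 0.20 over all rows, and 33 members had a positive value and 19 a negative one. Here and below, scaling was by TMM factors, and folds are on that scale.

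Snord67 guides methylation of U6 spliceosomal RNA. It took 0.230%, 0.0874%, 0.185% and 0.110% of counts outside Rn45s in controls, 0.131% and 0.0904% in libraries labelled sgMiat-6, and 2.05% and 2.31% in those labelled sgMiat-96. The sgMiat-6 libraries lay within the control range and the sgMiat-96 libraries far above it. Over both guides the log2 fold change was 2.80 ± 0.80 (SE, edgeR adjusted p = 0.0292). Without sgMiat-96 it was -0.48 (edgeR adjusted p = 0.567), so the group result rests on that guide.

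Snord37 guides 28S ribosomal RNA. It took 0.263%, 0.313%, 0.195% and 0.379% in controls, 0.465% and 0.446% with sgMiat-6 and 2.15% and 4.22% with sgMiat-96. All 4 Miat libraries lay above the controls, the sgMiat-96 libraries by far the most. Over both guides the log2 fold change was 2.53 ± 0.63 (SE, edgeR adjusted p = 0.0127), and it was 0.56 without sgMiat-96 (edgeR adjusted p = 0.537).

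Snord57, an 18S guide, showed the reverse division. Its share was 0.149%, 0.138%, 0.231% and 0.160% in controls, 0.610% and 0.892% in libraries labelled sgMiat-6 and 0.198% and 0.239% in those labelled sgMiat-96. The sgMiat-6 libraries were clear of the controls, and the sgMiat-96 libraries stood within or just above the control range. Over both guides the log2 fold change was 1.56 ± 0.48 (SE, edgeR adjusted p = 0.0435), and it was 0.26 without sgMiat-6 (edgeR adjusted p = 0.658).

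Snord91a, a 28S guide, was lower with both guides. Its share was 0.696%, 0.703%, 0.591% and 0.628% in controls, 0.295% and 0.416% with sgMiat-6, and 0.324% and 0.269% with sgMiat-96. The groups did not overlap. The log2 fold change was -1.01 ± 0.32 (SE, edgeR adjusted p = 0.0448). With the 3 repeated rows left out the adjusted p was 0.0594 in the same edgeR test. Without guide sgMiat-96 the log2 fold change was -0.96 and did not pass (edgeR adjusted p = 0.0655).

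These 4 calls changed with the libraries used. Leaving out 1 library at a time left 0 of the 4 without control 1 or control 3. It left 1 without control 2, control 4, Miat 96-2 or Mtdh 1-1, 2 without Miat 6-1 or Miat 96-1, and 3 otherwise. Without Mtdh 1-2, Snord19 passed besides (edgeR adjusted p = 0.0245). Over those 12 fits the edgeR adjusted p ran from 0.00398 to 0.110 for Snord67, 0.00312 to 0.110 for Snord37, 0.0304 to 0.217 for Snord57 and 0.0124 to 0.230 for Snord91a.

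On the share outside Rn45s, 4 members had all Miat libraries above all controls (Snord37, Snord45c, Snord49a and Snord55) and 3 had them below (Snord15a, Snord19 and Snord91a). Over all rows tested these backgrounds were 13.3% above and 9.79% below, so neither count exceeds the background. Snord19 had the next lowest p, with a log2 fold change of -0.66 ± 0.23 (SE, edgeR adjusted p = 0.0736). It passed in 10 of 27 alternatives, among them DESeq2 (adjusted p = 0.00111), limma-voom (0.0379), and edgeR with RLE factors (0.0394), library totals (0.0409) or Rn45s left out (0.0165). Its share was 3.95%, 3.93%, 3.81% and 4.10% in controls and 2.79%, 2.64%, 2.33% and 2.31% in Miat libraries. Snord55, a 28S guide, had 5, 6, 1 and 14 counts in controls and 48, 31, 26 and 19 in Miat libraries, a rate ratio of 3.53 (exact 95% interval 2.30 to 5.61, counting error only), and its edgeR adjusted p of 0.103 did not pass.

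**Figure D3:**
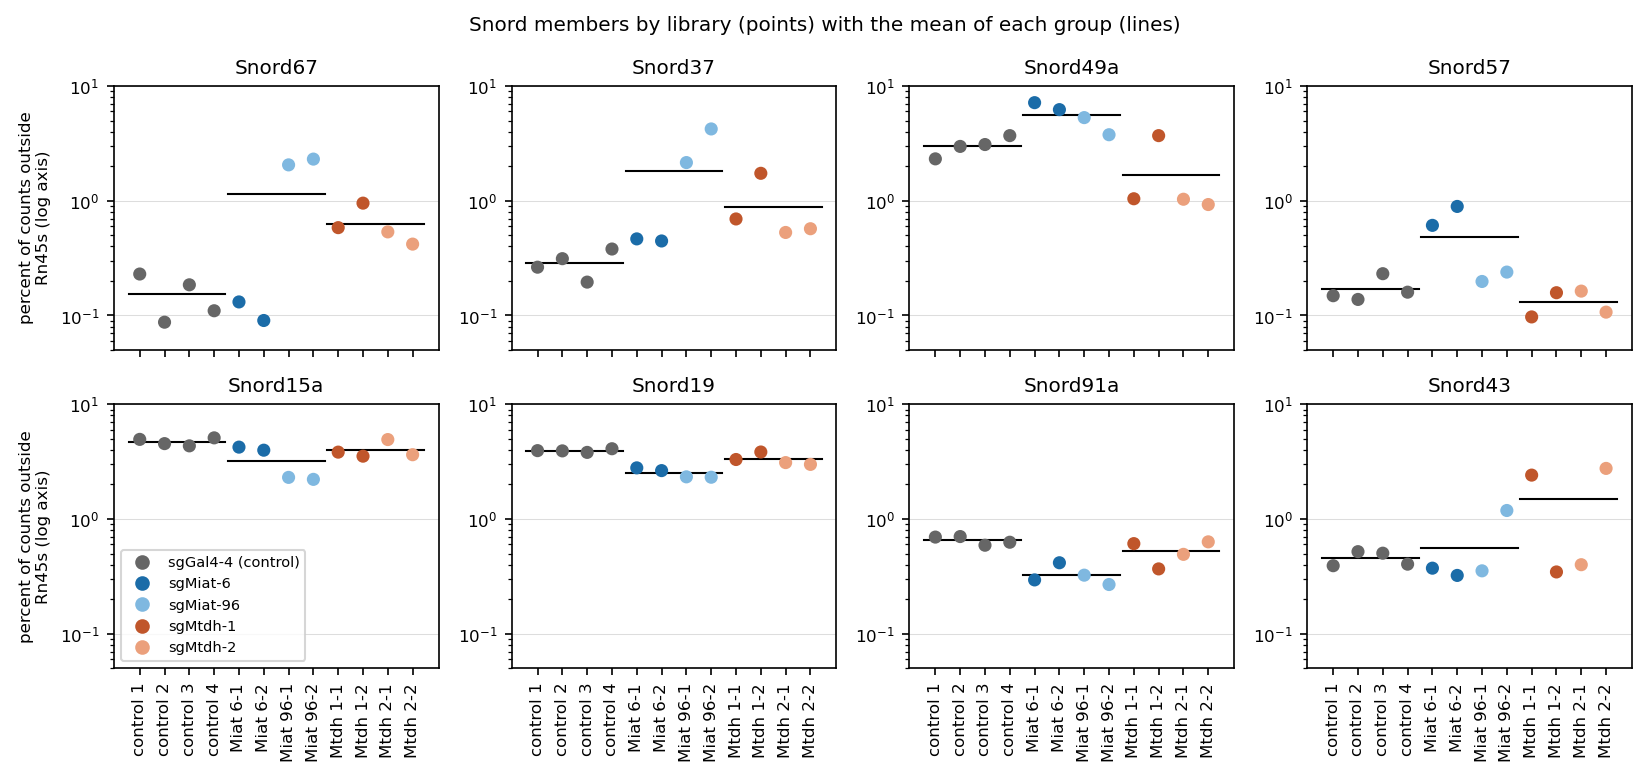
Percent of counts outside Rn45s on a log axis for 8 members in each library (points, coloured by guide) with lines at the group means. Snord67 and Snord37 are high in the 2 sgMiat-96 libraries and above the controls in the 4 Mtdh libraries, and Snord91a and Snord19 are below the controls in all 4 Miat libraries.

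For Mtdh guides against the same controls, 0 of 52 members passed edgeR's test, against 9.79% of all 143 rows (6.99% higher and 2.8% lower). At an unadjusted p of 0.05, 6 members passed in edgeR, and DESeq2 called 2 members and limma-voom 0. The median log2 fold change was -0.23 over the members and -0.01 over all rows. Snord67 stood at 0.583%, 0.953%, 0.535% and 0.419% of counts outside Rn45s and Snord37 at 0.694%, 1.73%, 0.529% and 0.570%, each above all 4 controls. These 2 of 52 members with no overlap above the controls compare with 9.09% of all rows, and the 3 below (Snord42b, Snord73a and Snord88a) with 12.6%. Their log2 fold changes were 2.10 ± 0.79 (SE, edgeR adjusted p = 0.125) and 1.65 ± 0.61 (SE, edgeR adjusted p = 0.124). Whether these 2 passed depended on the other libraries and the tool. Snord67 passed in edgeR without Miat 6-1 (adjusted p = 0.0475), without Miat 6-2 (0.0447), without guide sgMiat-6 (0.000668) or sgMiat-96 (0.00223), with no filter on low counts (0.0280) and in a fit of control and Mtdh libraries alone (0.000757), and in DESeq2 (0.0423). Snord37 passed in edgeR in the fit of control and Mtdh libraries alone (adjusted p = 0.00687) and without guide sgMiat-6 (0.0109) or sgMiat-96 (0.0298). Without Mtdh 1-2, 7 members passed, among them Snord43 and Snord42b.

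Snord43, an 18S guide, was uneven among Mtdh libraries. It had 58, 113, 98 and 114 counts in controls, 174 and 127 in Mtdh 1-1 and 1-2, and 130 and 310 in Mtdh 2-1 and 2-2. Its share outside Rn45s was 0.392% to 0.520% in controls, and 2.41%, 0.346%, 0.400% and 2.76% in the Mtdh libraries. Mtdh 1-1 and 2-2 were high and the other Mtdh libraries were near or below the lowest control. The high ones were the Mtdh libraries with the fewest counts outside Rn45s, 7208 and 11225 against 36738 and 32513. Among Miat libraries Snord43 was high in 96-2, at 1.19% against 0.322% to 0.373%, the Miat library with the fewest such counts (13400). Snord42a, an 18S guide in Rpl23a, was also highest in these 3 libraries, at 0.515% in Miat 96-2, 0.527% in Mtdh 1-1 and 0.401% in Mtdh 2-2 against 0.0953% to 0.199% in the other 9. Snord11, in Nop58, was highest in these libraries too, at 1.36%, 0.930% and 1.13% in the same order. In the other 9 it held 0.443% to 0.884%. Control 1, with 14801 counts, was not high for any of these members. The part of depth in this was not tested. The log2 fold change of Snord43 over all Mtdh libraries was 1.78 ± 0.62 (SE, edgeR adjusted p = 0.0992).

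Between the targets, 1 of 52 members passed edgeR's test for Mtdh against Miat libraries, against 3.5% of all rows (1.4% higher and 2.1% lower). Snord49a, a 28S guide, held 7.16%, 6.22%, 5.30% and 3.76% of counts outside Rn45s in Miat libraries and 1.04%, 3.69%, 1.03% and 0.927% in Mtdh libraries, with 2.32% to 3.69% in controls. The 2 targets did not overlap, though Miat 96-2 and Mtdh 1-2 nearly met. The log2 fold change was -1.69 ± 0.42 (SE, edgeR adjusted p = 0.0304). Over fits without 1 library it ran from -2.56 to -1.44, and the call held only without Miat 96-2 or Mtdh 1-2, with adjusted p up to 0.192. All Mtdh libraries lay below all Miat libraries for 4 members (Snord49a, Snord55, Snord57 and Snord65) and above them for 1 (Snord19), against 4.9% and 2.8% of all rows. The host mates Snord49b and Snord65 of Snord49a did not pass, at -0.72 ± 0.50 (edgeR adjusted p = 0.394) and -1.38 ± 0.55 (edgeR adjusted p = 0.178). Snord67 and Snord37 did not pass between the targets, at -0.70 ± 0.75 (edgeR adjusted p = 0.621) and -0.88 ± 0.60 (edgeR adjusted p = 0.393).

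The guides of a target were then taken singly, in a fit with 1 term per guide. With 2 libraries a guide, each call below borrows its spread from all 12 libraries. For libraries labelled sgMiat-6 against control, 9 members were higher and 1 was lower, against 15.4% higher and 10.5% lower of all 143 rows. Snord57 rose 4.66-fold (log2 2.22 ± 0.33 SE, edgeR adjusted p = 0.000214). Snord32a, a guide for both 18S and 28S ribosomal RNA, rose 3.08-fold (log2 1.62 ± 0.31 SE, edgeR adjusted p = 0.00181). Snord34, which shares the host Rpl13a with Snord32a and guides 28S, rose 2.54-fold. Snord45b and Snord45c, 18S guides in Rabggtb, rose 2.44-fold and 2.31-fold. Snord49a and Snord88a, which guide 28S, rose 2.31-fold and 2.21-fold. Snord68, a guide for both, rose 2.24-fold, and Snord100, an 18S guide, 1.91-fold. Adjusted p for these 7 ran from 0.00585 to 0.0385 in edgeR. On the share outside Rn45s both sgMiat-6 libraries lay above all controls for 18 of 52 members and below for 6, against 25.9% and 23.1% of all rows, and 25.9% of all rows passed the test in either direction.

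Snord32a is an example. It had 24, 56, 39 and 75 counts in controls, 337 and 180 in the libraries labelled sgMiat-6, and 53 and 29 in those labelled sgMiat-96. The sgMiat-6 libraries are also deeper, with 43443 and 33190 counts outside Rn45s. As a share of those counts Snord32a stood at 0.776% and 0.542% with sgMiat-6 and at 0.151% to 0.266% in the other 10 libraries, so the sgMiat-6 libraries exceeded every other library. Snord57 and Snord32a passed in all 12 fits without 1 library. The number of members passing fell from 10 to 3 without control 1, Miat 6-1 or Miat 96-1, to 4 without Miat 6-2 and to 6 without Miat 96-2.

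The member that fell with sgMiat-6 was Snord7, a guide for U6. It had 1, 11, 4 and 13 counts in controls, 0 and 1 in the libraries labelled sgMiat-6, 16 and 8 in those labelled sgMiat-96 and 2 to 9 in Mtdh libraries. Summed over libraries, the ratio of its sgMiat-6 rate to its control rate, per count outside Rn45s, was 0.0379 (exact 95% limits 0.000928 and 0.229, counting error only), from 1 count against 29, and the edgeR adjusted p was 0.0266. The call was lost without control 2, control 4, Miat 6-1 or Miat 6-2, with edgeR adjusted p of 0.089, 0.101, 0.240 and 0.0633.

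For libraries labelled sgMiat-96 against control, 2 members were higher and 4 lower, against 11.9% and 7.69% of all rows and 19.6% in either direction. Snord67 rose 13.3-fold (log2 3.74 ± 0.36 SE, edgeR adjusted p = 3.51e-06) and Snord37 rose 9.95-fold (log2 3.31 ± 0.38 SE, edgeR adjusted p = 1.64e-05). Both passed in all 12 fits without 1 library. Snord15a, Snord91a and Snord1a, which guide 28S, fell by 1.18, 1.25 and 1.30 on the log2 scale, and Snord19 fell by 0.88, with edgeR adjusted p from 0.00145 to 0.0217. Snord15a shows this in shares, at 4.95%, 4.54%, 4.34% and 5.10% in controls and 2.31% and 2.22% in sgMiat-96 libraries, while the sgMiat-6 libraries stood at 4.23% and 3.98%. Without Miat 96-2 none of these 4 falls passed, and Snord19 and Snord1a also failed without Miat 96-1. The edgeR adjusted p then ran from 0.0533 to 0.176. The median log2 fold change over the 52 members was 0.32 with sgMiat-6 and -0.39 with sgMiat-96, against 0.05 and 0.16 over all rows. Both sgMiat-96 libraries lay above all controls for 8 members and below for 15, against 26.6% and 23.8% of all rows.

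The test of sgMiat-96 against sgMiat-6 itself called 17 of 52 members, 3 higher and 14 lower, against 12.6% higher and 10.5% lower of all 143 rows and 23.1% in either direction. Snord67 (log2 4.10 ± 0.47 SE, edgeR adjusted p = 3.03e-05) and Snord37 (log2 2.61 ± 0.47 SE, edgeR adjusted p = 0.00177) were higher, and Snord7 was higher at 24 counts against 1. Lower were Snord12, Snord45b, Snord57, Snord34, Snord1a, Snord32a, Snord68, Snord88a, Snord88c, Snord100, Snord83b, Snord47, Snord52 and Snord15a, with log2 fold changes from -2.53 to -1.04 and edgeR adjusted p from 0.00205 to 0.0207. Snord45b stood at log2 -2.32 ± 0.43 (SE, edgeR adjusted p = 0.00205), from 184 and 122 counts with sgMiat-6 to 24 and 10 with sgMiat-96. Fits without Miat 6-1, 6-2, 96-1 or 96-2 called 8, 6, 3 and 9 of the 17, and the members that passed in each of the 12 fits without 1 library were Snord67, Snord37 and Snord45b. The rows tested include the members: 15 of the 143 rows were lower, 14 of them these members. Of the 91 rows under other symbols, 16 passed in either direction. Those 91 include Rabggtb, 1810032O08Rik and AI450353, which repeat the counts of Snord45c, Snord1a and Snord7. They are therefore not all independent of the members. The median log2 fold change was -0.67 over the members, 0.02 over all rows and 0.59 over those 91. The pairs of libraries did not overlap for 8 members that were higher with sgMiat-96 and 28 that were lower, against 34.3% higher and 28.7% lower of all rows.

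**Figure D4:**
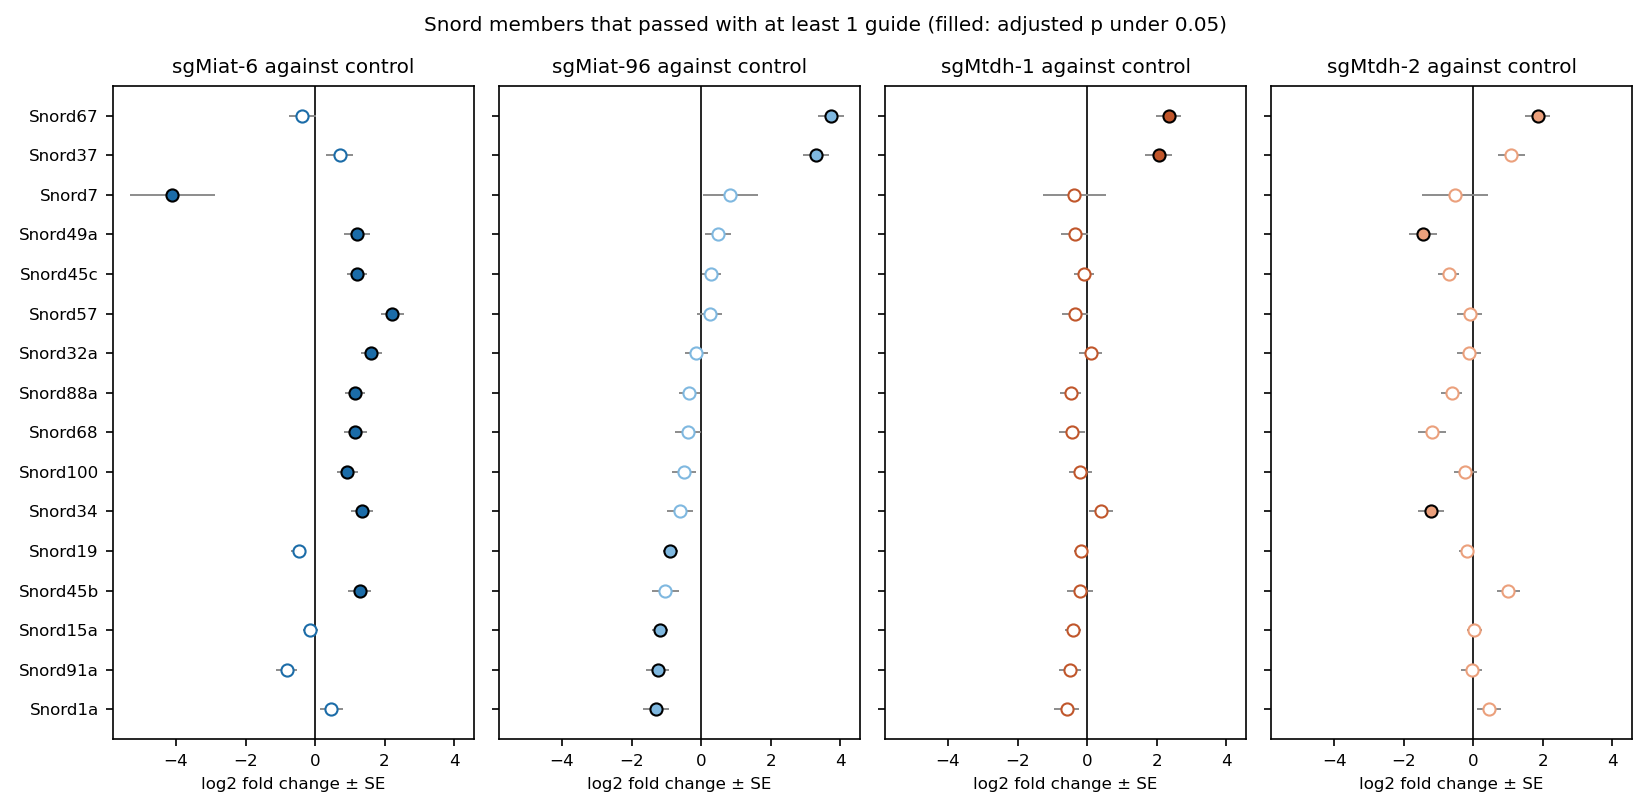
Log2 fold change with its SE for each guide against the control, for the 16 members that passed with at least 1 guide (filled points, edgeR adjusted p under 0.05). Snord67 lies at 3.74, 2.34 and 1.86 with sgMiat-96, sgMtdh-1 and sgMtdh-2 and at -0.37 with sgMiat-6. The sgMiat-6 point of Snord7 rests on 1 count. Most members that are filled for sgMiat-6 lie near or below 0 for the other 3 guides.

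Snord67 rose with each Mtdh guide. With sgMtdh-1, 2 members were higher and 0 lower, against 8.39% and 4.2% of all rows and 12.6% in either direction. Snord67 rose 5.08-fold (log2 2.34 ± 0.36 SE, edgeR adjusted p = 0.000482) and Snord37 rose 4.16-fold (log2 2.06 ± 0.38 SE, edgeR adjusted p = 0.00141). Without Mtdh 1-2, Snord37 did not pass, at log2 0.98 (edgeR adjusted p = 0.172), while the count passing was 6, with 5 of them lower. Without Mtdh 2-2 it was 4. With sgMtdh-2, 1 member was higher and 2 lower, against 10.5% and 4.2% of all rows and 14.7% in either direction. Snord67 rose 3.63-fold (log2 1.86 ± 0.37 SE, edgeR adjusted p = 0.0031), and Snord49a and Snord34 fell by 1.44 and 1.21 on the log2 scale (edgeR adjusted p = 0.0324 and 0.0484). Snord37 did not pass with this guide, at log2 1.10 ± 0.39 (SE, edgeR adjusted p = 0.0612). Snord67 did not pass without Mtdh 2-1, at log2 1.36 (edgeR adjusted p = 0.0872).

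The sgMtdh-2 falls depended on scaling and on single libraries. With library totals outside Rn45s in place of TMM factors 8 members passed, 7 of them lower. Snord49a failed without Mtdh 2-1 or 2-2, and Snord34 failed without control 2, control 4, Miat 6-1, Miat 6-2 or Mtdh 2-2, with edgeR adjusted p of 0.0654 to 0.171. With the 3 repeated rows left out Snord34 did not pass either (log2 -1.19, edgeR adjusted p = 0.0528). The count of members passing ran from 1 without Mtdh 2-2 to 13 without Mtdh 1-2, with 7 without control 1, 6 without Miat 96-1 and 10 without Mtdh 1-1. Between sgMtdh-2 and sgMtdh-1, 0 members passed the edgeR test, as did 0% of all rows, and 8 members had an unadjusted p below 0.05. The library pairs of the Mtdh guides lay above all controls for 2 members (sgMtdh-1) and 5 (sgMtdh-2), against 11.2% and 19.6% of all rows. They lay below for 7 and 16, against 19.6% and 28.7%. Between the guides, 5 members were higher with sgMtdh-2 without overlap and 15 lower, against 16.1% and 22.4% of all rows.

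**Figure D5:**
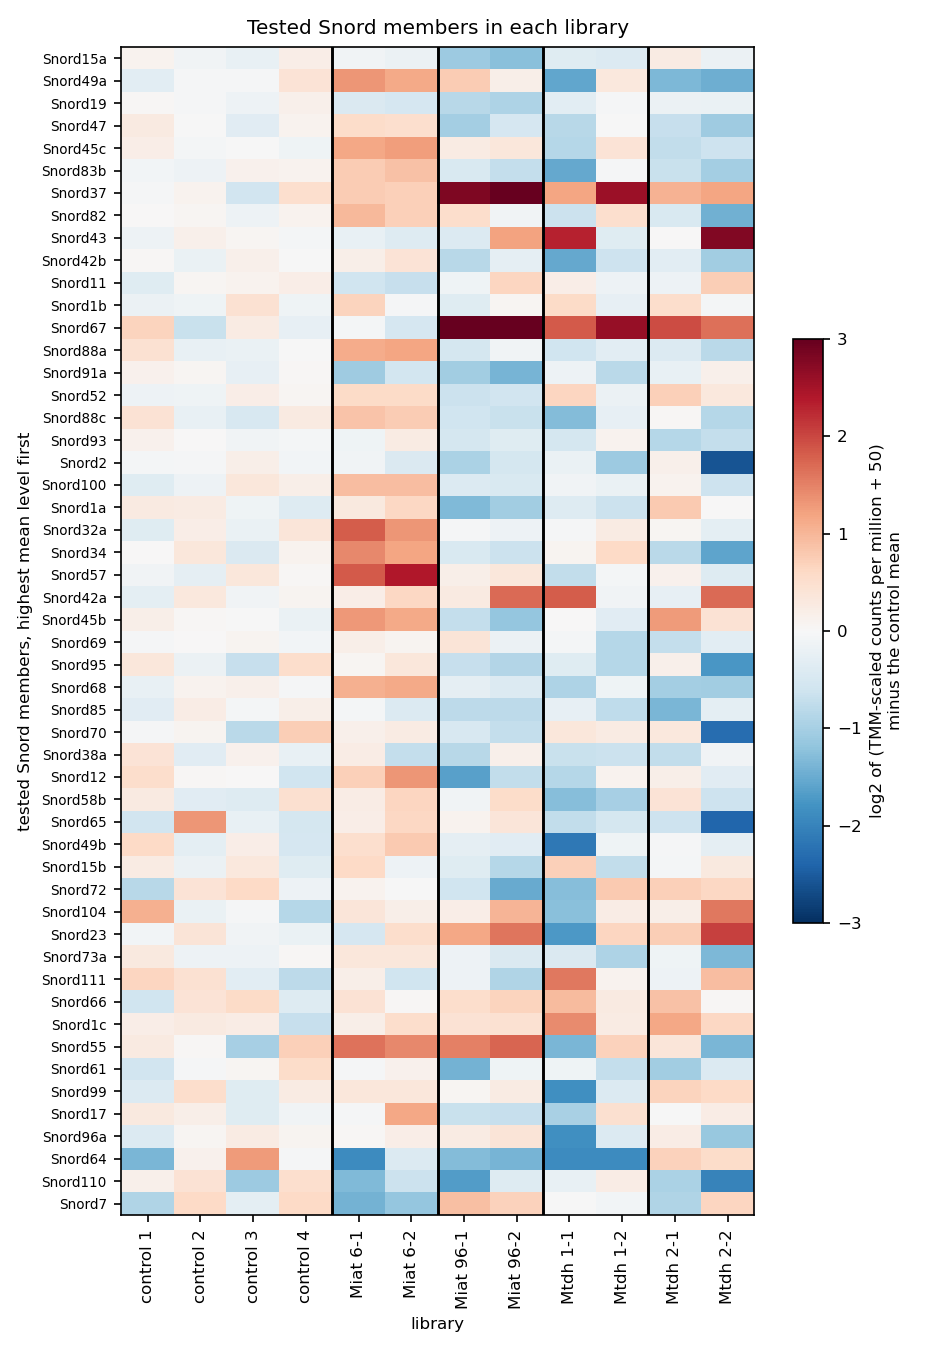
Log2 of TMM-scaled counts per 1000000 plus 50, minus the control mean, for the 52 tested members (rows, highest mean level first) in 12 libraries (columns, black lines between guides), with colours limited at 3 on either side. The column pairs of sgMiat-6 and sgMiat-96 differ in colour for many members, and Snord67 and Snord37 are red in all columns from Miat 96-1 onwards.

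Members that share a host are set side by side here, and the differences between them were not tested. In Nop56, Snord57 was higher with Miat guides, while Snord110, an 18S guide, was at -1.65 ± 0.81 (SE, edgeR adjusted p = 0.214), with 8, 16, 3 and 20 counts in controls and 4, 8, 1 and 5 in Miat libraries. In Rpl13a, whose snoRNAs have been described in lipotoxic stress, Snord32a and Snord34 both rose with sgMiat-6 while Snord33 and Snord35a had 41 and 30 counts in all and were not tested. Snord82 of the nucleolin gene Ncl, an 18S guide, passed in no comparison, at 0.59 ± 0.39 with Miat guides (edgeR adjusted p = 0.385) and -0.33 ± 0.39 with Mtdh guides (edgeR adjusted p = 0.594). Snord47, the only member of the Gas5 cluster in the tables, was at 0.01 ± 0.36 (edgeR adjusted p = 0.982) and -0.61 ± 0.36 (edgeR adjusted p = 0.324), while its host row Gas5 was at -0.72 ± 0.25 and 0.02 ± 0.25 (SE, edgeR adjusted p = 0.0683 and 0.975). With sgMiat-96 alone Gas5 fell by 1.00 on the log2 scale (edgeR adjusted p = 0.00677), and Snord47 was at -0.77 ± 0.28 (SE, edgeR adjusted p = 0.0766).

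The members listed for cutting of the ribosomal precursor and for the imprinted Snrpn-Ube3a cluster had few counts. Of 7 C/D RNAs listed for cutting of the precursor, 5 were in the tables and the others are not analysed here. U8 (Snord118) and the 3 U14 copies (Snord14a, Snord14c and Snord14d) were at 0 in all 12 libraries, and U22 (Snord22) had 15, 23 and 13 counts in the 3 groups. In the Snrpn-Ube3a cluster, Snord116 and its 2 like symbols, with 10 table rows each, were at 0. A count of 0 allows up to 3 counts, which is 69.1 to 416 per 1000000 counts outside Rn45s in a library. This is a limit on counted reads and not on abundance for copies of like sequence, such as Snord116l1 and Snord116l2, because how reads that match several positions were counted is not known. Snord64 of the same region had 1, 11, 27 and 11 counts in controls, 0, 9, 2 and 1 in Miat libraries and 0, 0, 23 and 7 in Mtdh libraries. Summed over libraries, the ratio of its Miat rate to its control rate was 0.178 (exact 95% limits 0.0861 and 0.338, counting error only). The libraries of each group overlapped, and the edgeR adjusted p was 0.215. Snord8, another U6 guide beside Snord67 and Snord7, had 6, 1 and 5 counts in the 3 groups and was not tested.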

How the data were processed

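Small RNA libraries of 12 samples were aligned with STAR to GRCm38 (mm10), per the submitters' processing notes. The authors deposited a read count, an FPKM and a TPM value for each of 4529 table rows per library. The sources used here do not name the counter or its settings. Only the count column was analysed, since the deposited FPKM and TPM values are derived from it: the lengths that count and FPKM imply were whole within 0.001 for 100% of values. The deposited FPKM and TPM values were not tested.

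Rows of a symbol with identical counts in all libraries were kept once, since such copies hold the same reads. This removed 27 Snord rows, all at 0, and 485 rows of all classes, of which 172 had a count. The 2 Snord symbols with unlike rows were summed. Shares were taken of counts outside Rn45s, with Wilson 95% intervals.

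Counts were tested with edgeR 4.0.16 (quasi-likelihood, R 4.3.3) on 143 rows that passed filterByExpr with a minimum count of 10 and a total of 15. TMM scaling was used, with Benjamini-Hochberg adjustment over all 143 rows and a threshold of 0.05. A model had a term per group and another a term per guide. DESeq2 1.42.0 and limma-voom (limma 3.58.1) were alternatives, along with other scalings, filters, and fits without each library or guide. The labels do not tell whether replicate numbers pair the samples. The deviations of 16 same-numbered pairs of libraries correlated at -0.260 to 0.364. Pairs of unlike number were not set beside these, so the range cannot tell whether libraries of 1 number share a batch. Python 3.11.15, pandas 2.3.3, scipy 1.17.1 and matplotlib 3.10.9 were used.

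The members and lists were chosen with earlier results of these data known. Members named are those past the threshold, the 10 of highest level per kilobase, up to 4 of each list, and those of lowest p up to 25. The pattern of Snord43 with Snord42a and Snord11, and the repeated reads of Snord45c, Snord1a and Snord7, were singled out after their values were seen. Positions are RefSeq on GRCm38.p6, with all 74 symbols matched by accession. Host genes are those of GENCODE M21, and sequences are GENCODE M21 transcripts, found for 73.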

Additional observations from a re-analysis of the deposited data

Results flagged for a closer look

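In 8 of 111 groups of 4 libraries 1 library stood far from the other 3 in a member's share of counts outside Rn45s, and chance gives about 1 in 20. Mtdh 1-2 held 1.73% Snord37, 2.55% Snord45c and 3.69% Snord49a, against 0.529% to 0.694%, 1.01% to 1.10% and 0.927% to 1.04% in the other Mtdh libraries. Miat 96-2 held 0.515% Snord42a and 1.19% Snord43, against 0.147% to 0.199% and 0.322% to 0.373%. Control 2 held 0.336% Snord65, against 0.0743% to 0.108%, and control 1 held 0.736% Snord88a, against 0.483% to 0.509%. Mtdh 1-1 held 0.0555% Snord33, which is 4 counts, against 0.00615% to 0.0109%.

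The guides against Miat differed from each other in 17 members by edgeR's test of that difference, and the targets differed in 1. For sgMiat-96 against the libraries labelled sgMiat-6, log2 fold changes were 4.95 for Snord7 (24 counts against 1), 4.10 for Snord67 and 2.61 for Snord37. They were -2.53 for Snord12, -2.32 for Snord45b, -1.97 for Snord57, -1.96 for Snord34, -1.77 for Snord1a and -1.76 for Snord32a. They were -1.55 for Snord68, -1.49 for Snord88a, -1.49 for Snord88c, -1.42 for Snord100, -1.42 for Snord83b, -1.28 for Snord47, -1.24 for Snord52 and -1.04 for Snord15a. For Mtdh against Miat libraries the value for Snord49a was -1.69.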

How the results depend on the processing

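Counts of members passing the test moved with several choices, and no cause was tested beyond what each choice itself changes. For Miat against control (4 as reported), 2 passed with no filter on low counts, 0 with a replicate block, 1 without guide sgMtdh-2, and 0 to 4 over fits without 1 library. For Mtdh against control (0), 2 passed with DESeq2, 1 with no filter, 2 in a fit of only those groups, 2 without guide sgMiat-6, 3 without sgMiat-96, 1 without sgMtdh-1, and 0 to 7 over fits without 1 library. For Mtdh against Miat (1), 3 passed with library totals outside Rn45s, 9 with DESeq2, 2 with all rows kept, 0 with a replicate block, 2 with the repeated rows left out, 0 in a fit of only those groups, 15 without sgMiat-96, 2 without sgMtdh-1, 0 without sgMtdh-2, and 0 to 6 over fits without 1 library. In the guide fit, sgMtdh-2 (3) gave 5 with RLE factors and 8 with library totals. Fits without 1 library gave 3 to 12 for sgMiat-6 (10), 2 to 9 for sgMiat-96 (6), 2 to 6 for sgMtdh-1 (2), 1 to 13 for sgMtdh-2 (3), 3 to 21 for sgMiat-96 against sgMiat-6 (17) and 0 to 2 for sgMtdh-2 against sgMtdh-1 (0). With limma-voom, 3 members passed for Miat, of which 1 was among the 4.

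The log2 fold change changed sign in 3 cases: Snord67 for Miat was -0.48 without guide sgMiat-96, and without guide sgMiat-6 Snord32a was -0.12 for Miat and 0.0866 for Mtdh against Miat. Of 722 planned member values, 602 kept direction and side of the threshold, as did 493 of 596 chosen after seeing the data. These totals include members that were not called. Over 27 alternatives, the Miat calls held in 19 for Snord37, 14 for Snord67, 9 for Snord57 and 16 for Snord91a. The Snord49a call between the targets held in 12 of 27. The Snord share difference was -4.55 percentage points of all counts for Miat minus control, -9.83 outside Rn45s and Rmrp for Mtdh minus control, and -1.91 of all counts for Mtdh minus Miat. With library totals the median of all rows for sgMiat-96 went from 0.16 to 0.34. The replicate block groups libraries by replicate number, and the labels do not tell whether that number pairs them. With this block 0 members passed in each of the 3 group comparisons. No other library has the numbers of control 3 and control 4. Each is alone in its block, so these controls add nothing to the blocked comparisons with control. Depth limits members of few counts: 14 members with counts could not be tested.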
